A study of Mus musculus with 31 samples.

Results

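The granins *Chga*, *Chgb*, *Scg2*, *Scg3*, *Scg5* and *Vgf* and the prohormone processing enzymes *Pcsk1*, *Pcsk2*, *Cpe* and *Pam* were followed in 31 mouse neuroblastomas, tumors of the sympathetic nervous system. The members were fixed as a list of gene symbols, with earlier results of these data known, and all 10 were found among the 17306 genes of the array table. RNA of 11 *MYCN*/*Alk* F1178L tumors, 10 *MYCN*/*Alk* R1279Q tumors and 10 *MYCN* tumors was hybridized to Affymetrix mouse arrays, 1 array per tumor. All 31 tumors carried the *TH-MYCN* transgene, a human *MYCN* expressed from the tyrosine hydroxylase promoter, so that no group was free of the oncogene. The *MYCN*/*Alk* tumors in addition carried a knock-in (KI) mutation at the endogenous *Alk* gene, a receptor tyrosine kinase, whereas *Alk* was not mutated in *MYCN* tumors.

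For 18 of the 21 *MYCN*/*Alk* tumors the background strain is known from the study's list of array-CGH profiles. Of the F1178L tumors, 6 arose in 129B6F1 mice (an F1 cross with C57BL/6) aged 9 to 19 weeks and 4 in 129S2 mice aged 5 to 6 weeks. Of the R1279Q tumors, 3 arose in 129B6F1 mice aged 17 to 27 weeks and 5 in 129S2 mice, all male, aged 8 to 11 weeks. Background and age cannot be told apart, since the 129S2 mice of each mutation were all younger than the 129B6F1 mice. The labels name both backgrounds for every tumor. The background of single *MYCN* tumors is not given in the sources used here, and their age was not used. Comparisons with *MYCN* tumors were therefore not adjusted for background or age, which may differ between the groups. Whether any tumors shared a mouse is not given in these sources either, and the tests treated tumors as independent. The study reports tumors at several sites in most R1279Q and all F1178L mice with *TH-MYCN*. In its list, F1178L tumors 1 and 2 match in background, sex and age, as do R1279Q tumors 16 and 19. The tumors are numbered as in their labels.

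Granins are acidic, calcium-binding proteins stored in the dense-core vesicles of endocrine cells and neurons, where they condense the contents and are themselves cut into smaller peptides. Prohormones are cut behind pairs of basic residues by the convertases that *Pcsk1* and *Pcsk2* encode, carboxypeptidase E (*Cpe*) removes the basic residues left at the end, and the amidating enzyme *Pam* converts a terminal glycine into an amide. In the sympathoadrenal lineage these vesicles also hold catecholamines, and chromogranin A, the product of *Chga*, is a classical marker of neuroendocrine tumors.

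Promoters of several of these genes are known to be bound through a cAMP response element (CRE), and the windows of members are shown here to place the letters of that element beside genes that behaved differently on the arrays. The palindromic CRE, TGACGTCA, and its half-site, TGACGT or ACGTCA on either strand, were searched for in windows of 250 bases. Each window lies before a transcript start given in the RefSeq promoter table (build GRCm38.p6), which is not always the outer start of the gene. The windows of *Pcsk1* and *Scg3* lie wholly inside the RefSeq bounds of the gene, and those of *Pam* mostly inside. A full CRE contains both half-sites. Of the 10 members, 8 had a window, and *Vgf* and *Cpe* had none in the table. A full CRE stood in 3 of the 8 members, *Chgb*, *Scg2* and *Pcsk1*, and a half-site in 5, the same 3 together with *Chga* and *Scg5*. Among all 32851 windows of the table, 1.55% held the full CRE and 6.5% a half-site. *Scg3*, *Pcsk2* and *Pam* held neither in their windows. The windows of *Scg2* (chr1:79440027-79440276, minus strand), *Chgb* (chr2:132781392-132781641, plus strand), *Chga* (chr12:102554691-102554940, plus strand) and *Pcsk1* (chr13:75089607-75089856, plus strand) are printed 5′ to 3′ on the strand of the gene, with the CRE or half-site in capitals.
Scg2: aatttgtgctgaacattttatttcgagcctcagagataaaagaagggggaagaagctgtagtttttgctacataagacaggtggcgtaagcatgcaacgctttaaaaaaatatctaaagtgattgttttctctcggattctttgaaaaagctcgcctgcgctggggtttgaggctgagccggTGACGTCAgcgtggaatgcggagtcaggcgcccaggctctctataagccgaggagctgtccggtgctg
Chgb: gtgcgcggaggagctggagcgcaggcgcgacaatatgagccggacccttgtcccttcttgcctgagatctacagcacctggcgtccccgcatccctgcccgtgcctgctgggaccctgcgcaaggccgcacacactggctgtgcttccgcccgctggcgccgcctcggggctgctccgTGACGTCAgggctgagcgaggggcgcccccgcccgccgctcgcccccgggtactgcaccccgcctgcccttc
Chga: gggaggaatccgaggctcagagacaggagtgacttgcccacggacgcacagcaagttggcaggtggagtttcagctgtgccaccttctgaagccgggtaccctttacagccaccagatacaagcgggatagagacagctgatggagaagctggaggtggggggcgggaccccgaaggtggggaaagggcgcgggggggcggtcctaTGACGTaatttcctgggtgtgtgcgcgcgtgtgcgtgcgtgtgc
Pcsk1: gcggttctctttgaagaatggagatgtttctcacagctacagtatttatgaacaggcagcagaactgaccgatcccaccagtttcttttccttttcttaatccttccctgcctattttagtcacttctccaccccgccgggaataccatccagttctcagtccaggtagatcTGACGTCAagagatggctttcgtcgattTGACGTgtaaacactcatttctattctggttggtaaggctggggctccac

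Counted back from the first base of the transcript, the full CRE lay at -68 to -61 in *Scg2*, at -72 to -65 in *Chgb* and at -78 to -71 in *Pcsk1*. *Pcsk1* held a further half-site at -50 to -45, and the only half-site of *Chga* was at -44 to -39. As given below, the 3 genes with a full CRE included a granin with the largest difference between genotypes among the members, one that did not pass the test, and a convertase at the lower end of the array scale in all 31 tumors. The letters were searched only in these windows, and binding was not measured.

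Values are the log2 values of the deposited table, where 1 unit is a 2-fold difference, and values of different genes are not compared, since each gene has its own probes. Genes above log2 4 in at least 10 of the 31 tumors were tested, 9322 in all, by limma with Benjamini-Hochberg adjustment over all of them and a threshold of 0.05. Of the 10 members, 9 passed this filter and *Pcsk1* did not. Values ran from 1.31 to 15.46 over the whole table, and the array of *MYCN* tumor 22 correlated least with the others (median r 0.899, against 0.946 for the next array). Of markers of sympathetic neuroblasts, 4 of 8 tested were higher in F1178L than in *MYCN* tumors and 4 did not pass. Of all genes tested, 20.1% were higher in this comparison. Among the 4 that were higher, tyrosine hydroxylase (*Th*) had group means of 13.1 in F1178L, 12.1 in R1279Q and 10.6 in *MYCN* tumors.

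**Figure D1:**
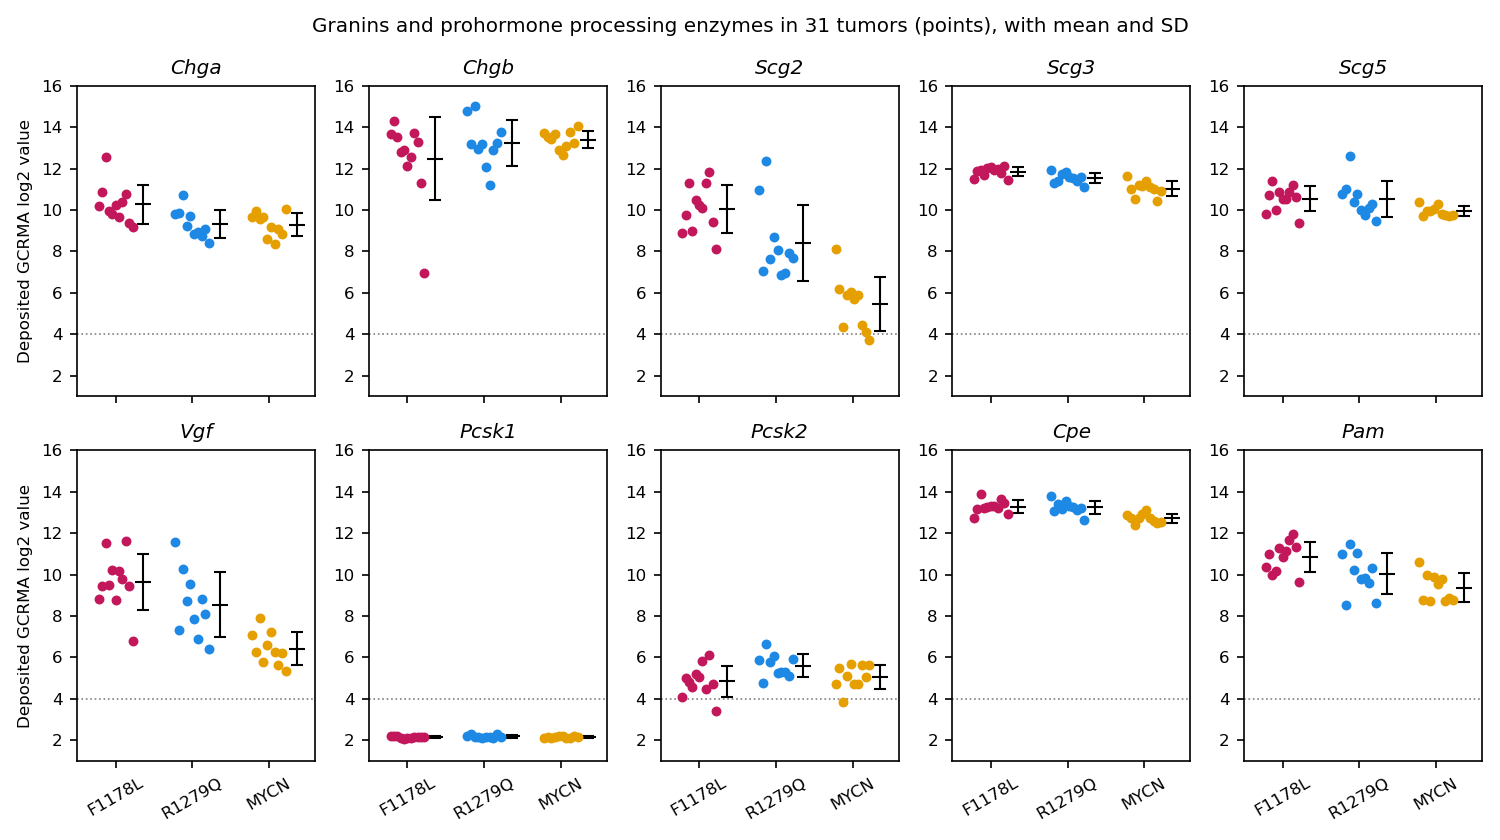
Deposited log2 value of each of the 10 members (vertical axis) in F1178L, R1279Q and *MYCN* tumors, with 1 point per tumor, the mean and SD beside them, and a dotted line at log2 4. *Scg2* and *Vgf* spread over several log2 units, with the mean of *MYCN* tumors lowest and ranges that overlap. *Scg3* and *Cpe* shift by less than 1 unit with little spread, and *Pcsk1* lies between 2.07 and 2.31 in all 31 tumors.

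*Scg2* and *Vgf* differed most from *MYCN* tumors, and both were higher in F1178L and in R1279Q tumors. *Scg2* encodes secretogranin II, the precursor of secretoneurin. It had a lowest, median and highest value of 8.11, 10.12 and 11.82 in F1178L tumors, 6.87, 7.79 and 12.39 in R1279Q tumors, and 3.71, 5.78 and 8.12 in *MYCN* tumors. The F1178L and *MYCN* tumors overlapped by a single pair, F1178L tumor 38 at 8.11 and *MYCN* tumor 3 at 8.12. The next highest *MYCN* tumor was at 6.17, below all 21 *MYCN*/*Alk* tumors. *Scg2* was higher in F1178L than in *MYCN* tumors by a log2 difference of 4.59 (SE 0.61, limma adjusted p = 8.73e-07), and higher in R1279Q than in *MYCN* tumors by 2.97 (SE 0.62, adjusted p = 0.00149). Markers of other cell types also differed: 6 of 7 macrophage markers and 3 of 4 endothelial and mural markers tested were lower in F1178L than in *MYCN* tumors. In R1279Q against *MYCN* tumors, 1 of the 7 and 2 of the 4 were lower. Of all genes tested, 26.4% were lower in F1178L and 7.04% in R1279Q than in *MYCN* tumors. The part of these cell types in the results was not tested. In RNA of whole tumors, fewer cells of a type and less RNA per cell cannot be told apart.

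*Vgf* was first described as a gene induced by nerve growth factor in a rat pheochromocytoma line, and its product is cut into several secreted peptides. Its lowest, median and highest values were 6.80, 9.50 and 11.63 in F1178L tumors, 6.42, 8.40 and 11.56 in R1279Q tumors, and 5.32, 6.25 and 7.89 in *MYCN* tumors. In 10 of 11 F1178L tumors and in 6 of 10 R1279Q tumors, *Vgf* was above the highest *MYCN* tumor, number 22. *Vgf* was higher in F1178L than in *MYCN* tumors by 3.22 on the log2 scale (SE 0.54, limma adjusted p = 2.19e-05), and higher in R1279Q than in *MYCN* tumors by 2.13 (SE 0.55, adjusted p = 0.00756).

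*Scg3* and *Cpe* shifted less, but with little spread between tumors. Secretogranin III, the product of *Scg3*, binds chromogranin A and the cholesterol-rich membrane of secretory granules. *Scg3* averaged 11.86 ± 0.23 in F1178L tumors (SD, n = 11), 11.56 ± 0.25 in R1279Q tumors (SD, n = 10) and 11.04 ± 0.36 in *MYCN* tumors (SD, n = 10). It was higher than in *MYCN* tumors by 0.82 in F1178L tumors (SE 0.13, limma adjusted p = 8.16e-06) and by 0.51 in R1279Q tumors (SE 0.13, adjusted p = 0.00651). The groups overlapped: 9 of 11 F1178L and 3 of 10 R1279Q tumors were above the highest *MYCN* tumor, number 3, at 11.63. With the 129B6F1 tumors alone, the R1279Q difference in *Scg3*, 0.51 from 3 tumors, did not pass (adjusted p = 0.163).

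*Cpe*, the carboxypeptidase, ran from 12.72 to 13.89 in F1178L tumors with a median of 13.28, from 12.64 to 13.81 in R1279Q tumors with a median of 13.23, and from 12.41 to 13.14 in *MYCN* tumors with a median of 12.73. The differences from *MYCN* tumors were nearly equal, 0.57 in F1178L tumors (SE 0.13, limma adjusted p = 0.000621) and 0.53 in R1279Q tumors (SE 0.13, adjusted p = 0.0051). Of the 11 F1178L tumors, 9 were above the highest *MYCN* tumor, as were 7 of the 10 R1279Q tumors. That highest *MYCN* tumor, at 13.14, was number 26.

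*Chga* and *Pam* were higher than in *MYCN* tumors in F1178L tumors. Chromogranin A is the main soluble protein of chromaffin granules. *Chga* had a lowest, median and highest value of 9.19, 10.20 and 12.59 in F1178L tumors, 8.40, 9.17 and 10.71 in R1279Q tumors, and 8.35, 9.38 and 10.07 in *MYCN* tumors. It was higher in F1178L than in *MYCN* tumors by 0.97 (SE 0.32, limma adjusted p = 0.0126), while the difference of R1279Q from *MYCN* tumors was 0.03 (SE 0.32, adjusted p = 0.955, 95% confidence interval -0.63 to 0.69). The F1178L tumor with the highest *Chga*, number 4, also had *Pnmt*, the chromaffin enzyme that makes adrenaline, at 10.47. *Pnmt* was above log2 4 in 3 of 31 tumors, F1178L tumors 4 and 29 and R1279Q tumor 14. Without tumor 4 the difference in *Chga* was 0.74 (adjusted p = 0.0208).

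*Pam* ran from 9.65 to 11.98 in F1178L tumors with a median of 11.00, from 8.52 to 11.46 in R1279Q tumors with a median of 10.04, and from 8.70 to 10.63 in *MYCN* tumors with a median of 9.21. It was higher in F1178L than in *MYCN* tumors by 1.48 (SE 0.34, limma adjusted p = 0.000833), and 7 of 11 F1178L tumors were above the highest *MYCN* tumor. In R1279Q tumors the difference was 0.67 (SE 0.35, adjusted p = 0.184) and did not pass the test, although it did with array weights (0.83, adjusted p = 0.0137). With only the 129B6F1 tumors set against *MYCN* tumors, the differences of F1178L tumors in *Chga* and *Pam*, 1.06 and 1.04, no longer passed (adjusted p = 0.0645 and 0.0708).

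*Scg5*, *Chgb* and *Pcsk2* passed in neither comparison with *MYCN* tumors. *Scg5* encodes the chaperone and inhibitor of the convertase made by *Pcsk2*. Its values were 9.40, 10.63 and 11.42 in F1178L tumors (lowest, median and highest), 9.47, 10.35 and 12.59 in R1279Q tumors, and 9.70, 9.87 and 10.40 in *MYCN* tumors, with the *MYCN* tumors inside the ranges of both mutations. The difference from *MYCN* tumors was 0.61 in F1178L tumors (SE 0.27, limma adjusted p = 0.0608) and 0.58 in R1279Q tumors (SE 0.27, adjusted p = 0.133). In R1279Q tumors it was 0.35 without tumor 9 (adjusted p = 0.264), and it passed with the 129B6F1 tumors alone (1.53, adjusted p = 0.0164). Single tumors decided the call in F1178L against *MYCN* tumors: *Scg5* passed without F1178L tumor 1 (adjusted p = 0.0367), 11 (0.0479) or 38 (0.0223), and without R1279Q tumor 9 (0.0164), with differences of 0.61 to 0.72. It also passed by Student's test (0.0216), with array weights (0.00304), after quantile normalization (0.045) and with the *MYCN*/*Alk* tumors of 129S2 alone (0.000422).

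*Chgb*, chromogranin B, was lowest in a single F1178L tumor. Its values ran from 6.97 to 14.31 in F1178L tumors with a median of 12.92, from 11.22 to 15.02 in R1279Q tumors with a median of 13.19, and from 12.65 to 14.05 in *MYCN* tumors with a median of 13.49. F1178L tumor 38 held the value of 6.97, and the other 10 F1178L tumors were at 11.32 or above. The SD of 2.01 among F1178L tumors was 0.87 without tumor 38, against 0.43 among *MYCN* tumors. The difference of F1178L from *MYCN* tumors was -0.94 (SE 0.58, limma adjusted p = 0.188), or -0.38 without tumor 38, and that of R1279Q from *MYCN* tumors was -0.17 (SE 0.59, adjusted p = 0.87). Tumor 38 was also the lowest F1178L tumor at *Chga*, *Scg2*, *Scg3*, *Scg5*, *Vgf*, *Pcsk2* and *Pam*.

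Of the 2 convertases, *Pcsk1* lay at the lower end of the scale, and *Pcsk2* was above log2 4 in most tumors. *Pcsk2* had a lowest, median and highest value of 3.42, 4.80 and 6.09 in F1178L tumors, 4.74, 5.54 and 6.63 in R1279Q tumors, and 3.83, 5.08 and 5.68 in *MYCN* tumors. The ranges overlapped, and the differences from *MYCN* tumors were -0.22 in F1178L tumors (SE 0.27, limma adjusted p = 0.526) and 0.53 in R1279Q tumors (SE 0.28, adjusted p = 0.175). *Pcsk1* ran from 2.07 to 2.19 in F1178L tumors, from 2.11 to 2.31 in R1279Q tumors and from 2.09 to 2.18 in *MYCN* tumors. It was below log2 4 in all 31 tumors and was not tested.

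Over the members, 6 of the 9 tested were higher in F1178L than in *MYCN* tumors and 0 were lower at an adjusted p under 0.05, where 20.1% of all genes tested were higher and 26.4% lower (46.5% in either direction). In R1279Q against *MYCN* tumors, 4 of 9 were higher and 0 lower, where 10.8% of all genes tested were higher and 7.04% lower (17.9% in either direction). The median log2 difference of the 9 members was 0.82 in F1178L against *MYCN* tumors, where the median over all genes tested was -0.07, and 0.53 in R1279Q against *MYCN* tumors, where it was -0.01. Both comparisons share the 10 *MYCN* tumors. No member separated any pair of genotype groups without overlap. Without overlap, 1.54% of all genes tested were above and 1.02% below the *MYCN* tumors in F1178L tumors, 0.386% above and 0.0751% below them in R1279Q tumors, and 0.0107% above and 0.0429% below the R1279Q tumors in F1178L tumors.

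**Figure D2:**
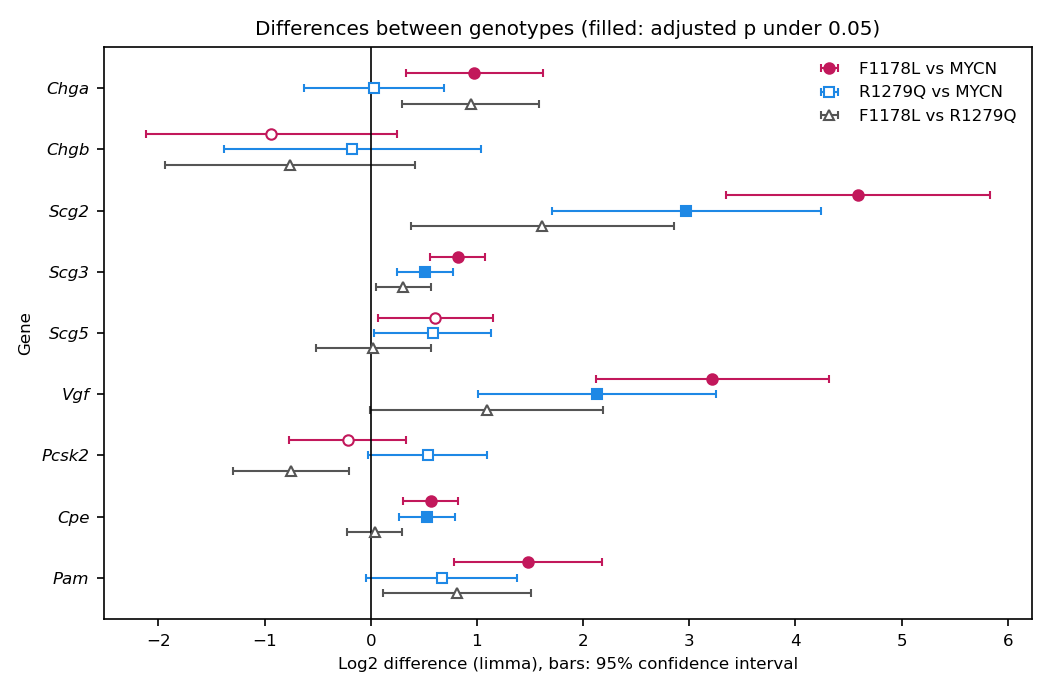
Log2 differences of the 9 members tested (horizontal axis) of F1178L and of R1279Q from *MYCN* tumors and of F1178L from R1279Q tumors, with bars for the 95% confidence interval and filled symbols for an adjusted p under 0.05 over 9322 genes. The 6 filled symbols of F1178L and the 4 of R1279Q all lie to the right of 0, *Scg2* farthest at 4.59 and 2.97, and no symbol of F1178L against R1279Q is filled.

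The direct comparison of the mutations asked whether F1178L and R1279Q tumors differ in these genes. At the threshold of 0.05 it called 0 of 9 members by limma, where 8.53% of all genes tested were called. At an unadjusted p under 0.05 there were 5 members and 2517 of all 9322 genes. Student's test with the same adjustment also called 0 members, and 3.65% of all genes. The 5 were *Chga* with a log2 difference of 0.94 (limma adjusted p = 0.057, 95% confidence interval 0.30 to 1.59), *Pcsk2* with -0.75 (adjusted p = 0.0706, interval -1.30 to -0.20), *Scg2* with 1.62 (adjusted p = 0.085, interval 0.38 to 2.86), *Scg3* with 0.31 (adjusted p = 0.115, interval 0.05 to 0.56) and *Pam* with 0.81 (adjusted p = 0.121, interval 0.12 to 1.51). *Vgf* had a difference of 1.09 (adjusted p = 0.186, interval -0.00 to 2.19). *Cpe*, with a difference of 0.04 and an interval of -0.22 to 0.30, had the narrowest bounds around 0. The count depended on single tumors and on their weighting: 2 members, *Chga* and *Scg2*, passed without R1279Q tumor 5 or without R1279Q tumor 9, *Chga* passed without F1178L tumor 37 or 38, *Pcsk2* passed without F1178L tumor 36, and 5 members passed with array weights, which called 32.6% of all genes tested.

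Within the 129S2 background, *Scg2* was higher in F1178L than in R1279Q tumors. It was at 10.12, 10.25, 10.48 and 11.30 in the 4 F1178L tumors, and at 6.95, 7.62, 7.91, 8.05 and 8.68 in the 5 R1279Q tumors. These groups did not overlap, and the log2 difference was 2.69 (SE 0.80, limma adjusted p = 0.0395). *Scg2* was 1 of 9 members called in this comparison, where 11.7% of all genes tested were called, and all 5 R1279Q tumors were from males whereas 2 of the 4 F1178L tumors were. *Scg3* did not overlap either, with 11.93 to 12.08 in F1178L and 11.43 to 11.86 in R1279Q tumors of 129S2 (difference 0.37, adjusted p = 0.143). Of all genes tested, 10.5% were higher and 14.4% lower without overlap between these 9 tumors.

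Within 129B6F1, the *Scg2* values were 8.11, 8.89, 8.96, 9.40, 9.75 and 11.32 in the 6 F1178L tumors and 7.08, 10.98 and 12.39 in the 3 R1279Q tumors, of which 1 lies below, 1 inside and 1 above the F1178L range. The difference was -0.74 (SE 0.85, limma adjusted p = 0.801). No member passed there, as was the case for all 9322 genes tested (0% called), with 909 genes and 2 members, *Scg5* at -1.14 and *Pcsk2* at -1.31, at an unadjusted p under 0.05.

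**Figure D3:**
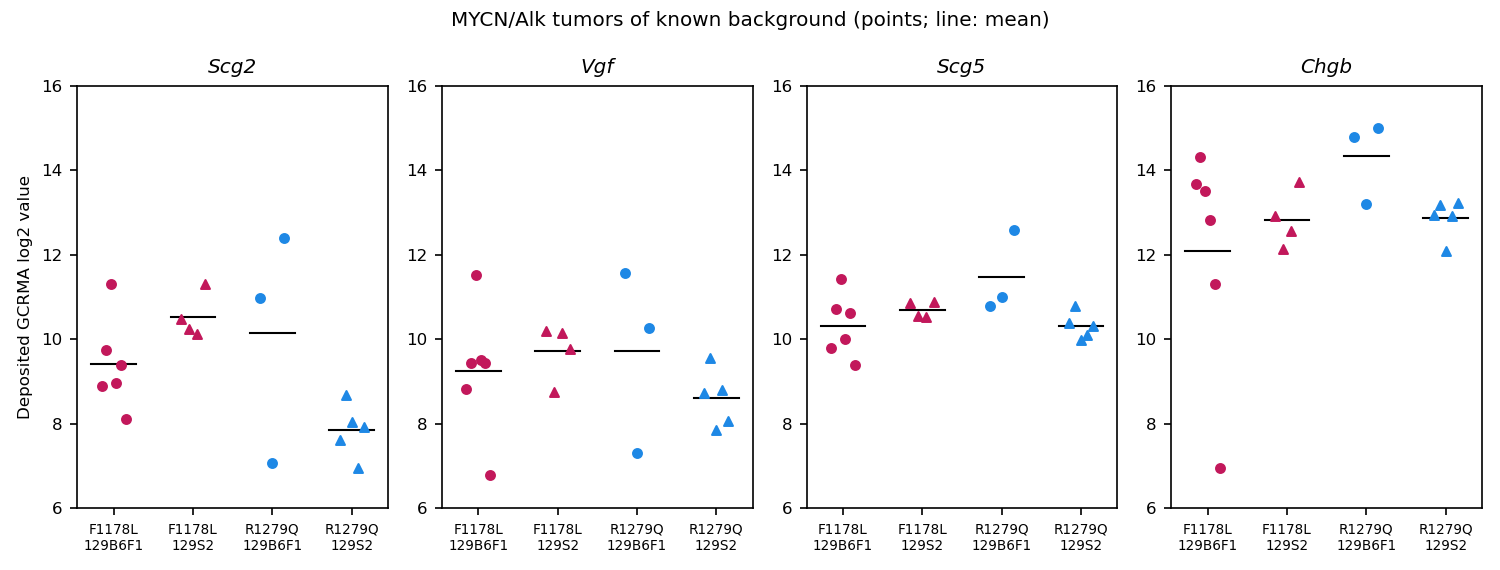
Deposited log2 values of *Scg2*, *Vgf*, *Scg5* and *Chgb* (vertical axis) in the 18 *MYCN*/*Alk* tumors of known background, 1 point per tumor (circles 129B6F1, triangles 129S2), with a line at each group mean. At *Scg2* the 4 F1178L and 5 R1279Q tumors of 129S2 do not overlap, while 3 R1279Q tumors of 129B6F1 spread between 7.08 and 12.39.

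Between backgrounds, with mutation in the model, 0 of 9 members were called by limma in 129B6F1 against 129S2 tumors, 0 at an unadjusted p under 0.05, and 4.99% of all genes tested were called. The differences ran between -0.40 at *Pam* (95% confidence interval -1.16 to 0.36) and 0.62 at *Chga* (interval -0.15 to 1.38). Chromogranin A ran from 9.19 to 12.59 in 129B6F1 tumors with a median of 9.96, and from 8.74 to 10.39 in 129S2 tumors with a median of 9.64. The SD over both mutations was larger in 129B6F1 than in 129S2 tumors at each of the 9 members, which is a description without a test. It was 2.47 (1.19 without tumor 38) against 0.52 at *Chgb*, 0.95 against 0.32 at *Scg5* and 1.66 against 1.52 at *Scg2*. These SDs also hold any difference between the mutations.

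Within F1178L tumors, 0 of 9 members were called in 129B6F1 against 129S2 (6.31% of all genes tested, 0 members at an unadjusted p under 0.05). Within R1279Q tumors, 0 of 9 were called (0.59% of all genes tested), and *Scg2* with a difference of 2.31 and *Scg5* with 1.15 had an unadjusted p under 0.05, as did 14.4% of all genes. The *Scg5* values of R1279Q tumors were 10.80, 11.01 and 12.59 in 129B6F1, against 9.98, 10.11, 10.31, 10.39 and 10.78 in 129S2, without overlap. *Chga* did not overlap either, with 9.80, 9.85 and 10.71 in 129B6F1, against 8.74 to 9.73 in 129S2. Of all genes tested, 4.11% were higher and 6.21% lower in 129B6F1 without overlap between these 8 R1279Q tumors. In F1178L tumors, *Scg5* overlapped between the backgrounds, with 9.40 to 11.42 in 129B6F1 and 10.53 to 10.89 in 129S2.

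The interaction, the background difference in F1178L tumors minus that in R1279Q tumors, was called for 0 of 9 members by limma (0.0751% of all genes tested). *Scg2* at -3.44 (SE 1.16, adjusted p = 0.19) and *Scg5* at -1.53 (SE 0.55, adjusted p = 0.215) had an unadjusted p under 0.05, as did 15.2% of all genes. Leaving out R1279Q tumor 8 moved *Scg2* to -4.97 (adjusted p = 0.0167), and leaving out the other tumors of known background in turn gave adjusted p values above 0.05. That tumor was the one of 3 R1279Q tumors of 129B6F1 with low *Scg2* (7.08).

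The members were compared with each other over all tumors, with the genotypes pooled. After the mean of each genotype was subtracted, Pearson's r over the 31 tumors was above 0 in all 36 pairs of the 9 members, from 0.13 for *Chga* and *Scg3* to 0.77 for *Scg2* and *Scg5*, and above 0.5 in 18 pairs. *Vgf* had an r of 0.72 with *Cpe*, 0.71 with *Scg5*, 0.70 with *Scg2* and 0.69 with *Pam*. *Scg3* was most like *Cpe* with 0.72, whereas *Chgb* and *Cpe* had 0.18. These values describe tumors that share the normalization, and low tumors such as number 38 enter every pair. Pairs of other genes were not counted for comparison, and genes outside the list reached a higher r with single members, as given below.

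Among other genes, *Resp18*, which encodes an endocrine protein of the secretory pathway, was among the 3 genes most like *Scg5* (r = 0.83), *Vgf* (0.84) and *Scg2* (0.76) over the 31 tumors. The gene most like *Scg2* was *Chmp4b* (0.87), that most like *Vgf* was *Inpp1* (0.86), and that most like *Scg5* was *Mfsd6* (0.85). *Sdf2* was most like *Chga* (0.82), *Chid1* most like *Chgb* (0.83), *Fam117b* most like *Scg3* (0.79), *Gprasp2* most like *Cpe* (0.85) and *B230216N24Rik* most like *Pam* (0.83).

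**Figure D4:**
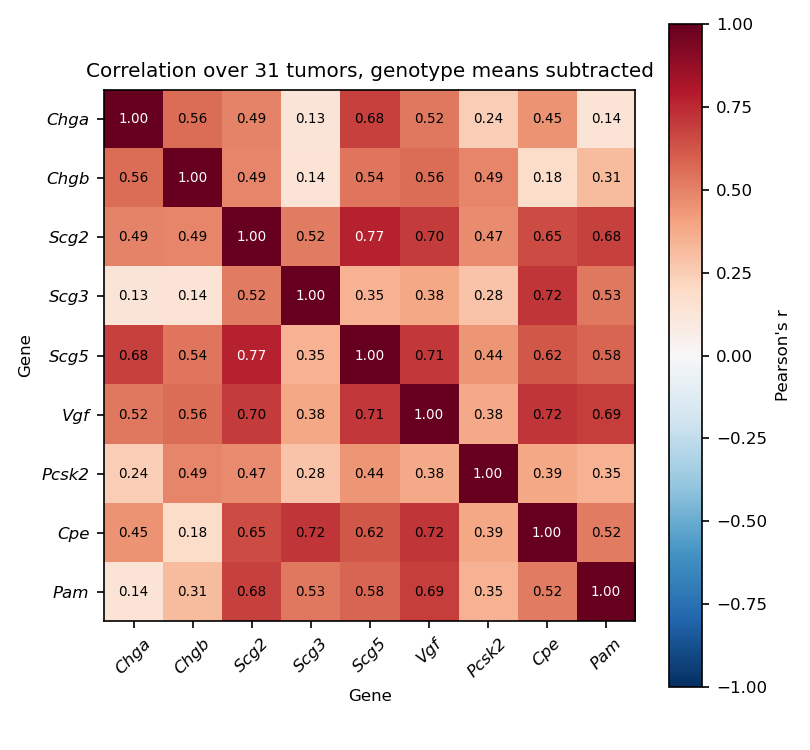
Pearson's r between the 9 members tested over 31 tumors after the mean of each genotype group was subtracted (both axes list the genes, the color scale runs from -1 to 1). All 36 pairs are above 0, with *Scg2*, *Scg5*, *Vgf*, *Cpe* and *Pam* between 0.52 and 0.77 with each other.

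Genes that act beside the members in the same pathway are given by list. Of the other granin-like proteins and convertase inhibitors, 4 of 4 tested were higher in F1178L than in *MYCN* tumors and 1 in R1279Q than in *MYCN* tumors. The shares higher among all genes tested were 20.1% and 10.8%. *Pcsk1n*, which encodes the granin-like inhibitor of the *Pcsk1* convertase, had group means of 9.11 in F1178L, 8.12 in R1279Q and 7.65 in *MYCN* tumors, with a difference of 1.46 in F1178L against *MYCN* tumors (SE 0.32, limma adjusted p = 0.000555). The nucleobindin gene *Nucb2*, precursor of nesfatin, was higher by 1.18 in F1178L tumors (adjusted p = 8.28e-06) and by 0.78 in R1279Q tumors (adjusted p = 0.00463). *Gnas* (1.26, adjusted p = 0.0311), whose locus also encodes a granin-like protein, and *Nucb1* (0.54, adjusted p = 0.0412) were also higher in F1178L tumors, and their differences of 1.07 and 0.08 in R1279Q against *MYCN* tumors did not pass.

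Of the other proprotein convertases, 3 were tested and none was higher in either mutation than in *MYCN* tumors. With 20.1% of all genes tested higher in F1178L and 10.8% in R1279Q tumors, 3 genes are too few for a contrast with other lists. *Furin*, the convertase of the constitutive pathway, had a difference of 0.07 in F1178L against *MYCN* tumors (limma adjusted p = 0.77), and *Pcsk7* one of 0.18 (adjusted p = 0.374). *Mbtps1*, which cuts membrane-bound transcription factors, was lower in F1178L than in *MYCN* tumors (adjusted p = 0.000603) at group means of 3.82 in F1178L and 4.31 in *MYCN* tumors, a difference of -0.27 with F1178L values below log2 4 set to it.

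Of the other carboxypeptidases and the genes for copper, ascorbate and terminal modification, 3 of 4 tested were higher in F1178L and 2 in R1279Q than in *MYCN* tumors. The shares higher among all genes tested were 20.1% and 10.8%. The 3 were *Atp7a*, *Cyb561* and *Qpct*, and the 2 were *Atp7a* and *Qpct*. *Qpct* was below log2 4 in all *MYCN* tumors and passed the filter through *MYCN*/*Alk* tumors alone. With *MYCN* values below log2 4 set to it, *Qpct* was higher by at least 0.16 in F1178L and 0.30 in R1279Q tumors. *Aebp1*, listed with the carboxypeptidases, had a difference of 0.64 in F1178L against *MYCN* tumors and did not pass (limma adjusted p = 0.0748). The other carboxypeptidases listed did not reach the filter. *Atp7a*, which pumps copper into the secretory pathway for enzymes such as *Pam*, had group means of 9.53 in F1178L, 8.81 in R1279Q and 7.75 in *MYCN* tumors. It was higher than in *MYCN* tumors by 1.78 in F1178L (SE 0.22, limma adjusted p = 4.19e-07) and by 1.06 in R1279Q tumors (SE 0.23, adjusted p = 0.00201), and higher by 0.72 in F1178L than in R1279Q tumors (adjusted p = 0.0419). *Cyb561*, the cytochrome that returns electrons to ascorbate inside these vesicles, was higher by 1.48 in F1178L tumors (adjusted p = 0.000828) and had a difference of 0.78 in R1279Q tumors (adjusted p = 0.116).

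The substrates of these enzymes were represented by 8 peptide precursors above the filter, of which 6 were higher in F1178L and 5 in R1279Q than in *MYCN* tumors, and 0 lower. The shares higher among all genes tested were 20.1% and 10.8%. *Vip*, *Gal* and *Tac1* were above log2 4 in 1 *MYCN* tumor each and *Adcyap1* in 2, so they passed the filter mainly through *MYCN*/*Alk* tumors. A precursor above log2 4 only in some *MYCN* tumors could not pass, so these counts are partly set by the filter. *Cartpt* had group means of 13.7 in F1178L, 13.4 in R1279Q and 10.3 in *MYCN* tumors. It was higher than in *MYCN* tumors by 3.45 in F1178L (limma adjusted p = 3.03e-06) and by 3.12 in R1279Q tumors (adjusted p = 0.000138). *Vip*, *Adcyap1* and *Gal* were below log2 4 on average in *MYCN* tumors, so that with *MYCN* values below log2 4 set to it they were higher by at least 7.0, 5.06 and 3.48 in F1178L tumors and by at least 3.79, 4.03 and 3.49 in R1279Q tumors. *Npy* was higher by 2.79 in F1178L tumors (adjusted p = 0.0118) and had a difference of 1.19 in R1279Q tumors (adjusted p = 0.381). Neither *Penk*, the enkephalin precursor, nor *Adm* passed. Of the precursors not tested, *Pomc* was above log2 4 in 6 tumors, up to 8.86.

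Of 23 genes of dense-core vesicle formation and release tested, 17 were higher and 0 lower in F1178L, and 8 higher and 0 lower in R1279Q, than in *MYCN* tumors. *Doc2b* was below log2 4 in all *MYCN* tumors and *Slc18a1* above it in 2, so both passed the filter mainly through *MYCN*/*Alk* tumors. A gene above log2 4 only in some *MYCN* tumors could not pass, so the counts are partly set by the filter. Of all genes tested, 20.1% were higher in F1178L and 10.8% in R1279Q than in *MYCN* tumors. In either direction, 8.53% of all genes tested were called between the mutations and 4.99% between backgrounds. The largest differences of F1178L from *MYCN* tumors were at *Doc2b*, a calcium sensor of vesicle fusion (at least 2.43 with the *MYCN* values below log2 4 set to it, limma adjusted p = 9.14e-11), *Slc18a2*, the vesicular monoamine transporter (2.53, adjusted p = 2.01e-06), *Ptprn*, a vesicle membrane protein (2.30, adjusted p = 0.000496), and *Unc13a*, a priming factor (2.04, adjusted p = 9.17e-09). Between the mutations, F1178L tumors were above R1279Q tumors at 4 of the 23: *Doc2b* by 1.44 (adjusted p = 0.00594), *Syt4* by 0.97 (0.022), *Snap25* by 0.85 (0.0185) and *Unc13a* by 0.81 (0.0152). Between backgrounds, 4 were lower in 129B6F1 than in 129S2 tumors, *Rab3a* with a difference of -1.06 (adjusted p = 0.0276), *Cadps* with -0.70 (0.049), *Dnajc5* with -0.65 (0.0497) and *Syt11* with -0.46 (0.0472). The last 4 genes, *Syt4* and *Snap25* were named after their values were seen.

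Among transcription factors and cofactors linked to these genes, *Rest*, the repressor of neuronal and neuroendocrine genes, stayed below log2 4 in all 31 tumors (at most 3.39). Of 8 others tested, F1178L tumors were above *MYCN* tumors at 2 and below them at 3, and R1279Q tumors above at 2 and below at 1. Among all genes tested, 20.1% were higher and 26.4% lower in F1178L, and 10.8% higher and 7.04% lower in R1279Q tumors. The list was not tested against these shares. *Rcor2*, a corepressor partner of *Rest*, had group means of 5.53 in F1178L, 6.11 in R1279Q and 7.30 in *MYCN* tumors, with a difference from *MYCN* tumors of -1.77 in F1178L (limma adjusted p = 8.52e-05) and -1.19 in R1279Q tumors (adjusted p = 0.0139). *Insm1*, a zinc-finger factor of neuroendocrine cells, had a difference of -0.81 (adjusted p = 0.00154) and *Creb1*, a factor that binds the CRE, one of -0.46 (adjusted p = 0.0016) in F1178L against *MYCN* tumors. *Rcor3* (0.70, adjusted p = 6.06e-05) was higher in F1178L tumors, as was *Atf2* (0.38, adjusted p = 0.00346), a CRE-binding factor named after its values were seen.

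Endocrine cells other than tumor cells also hold granins, and their markers were looked at in the same tumors. Of the pancreas and pituitary markers, 0 of 6 named genes reached the filter, with *Gcg*, *Ppy*, *Gh* and *Prl* below log2 4 in all 31 tumors. *Pomc* was above log2 4 in 2 F1178L tumors, 4 R1279Q tumors and 0 *MYCN* tumors, and *Ins2* in 1 *MYCN* tumor, at 4.65. Of the 7 adrenal cortex markers, 0 reached the filter, and 3 of them were above log2 4 in *MYCN* tumor 25, *Hsd3b1* at 6.34, *Cyp11b1* at 4.23 and *Star* at 4.02. Of the chromaffin markers, 4 of 6 were tested, with *Slc18a1* higher and *Epas1* lower in F1178L than in *MYCN* tumors, and their summed level on the log2 scale ran from 7.28 to 10.85 in F1178L, 6.80 to 8.77 in R1279Q and 7.55 to 8.91 in *MYCN* tumors. The summed level of macrophage markers ran from 10.25 to 11.84 in F1178L, 10.84 to 13.26 in R1279Q and 11.28 to 12.88 in *MYCN* tumors, and that of endothelial and mural markers from 7.86 to 9.14 in F1178L, 6.72 to 10.91 in R1279Q and 8.41 to 10.60 in *MYCN* tumors. Of the Schwann cell markers, *Fabp7* and *Egfl8* were higher in F1178L tumors while *S100b*, *Sox10*, *Erbb3* and *Gfap* were below log2 4 in all 31 tumors. *Fabp7* and *Egfl8* were above log2 4 in 2 *MYCN* tumors each and passed the filter mainly through *MYCN*/*Alk* tumors. The part of these cells in the members' values was not tested.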

How the data were processed

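Gene expression was measured with Affymetrix mouse arrays, and the deposited log2 values, which the authors normalized by GCRMA with Brainarray annotations (version not given in the sources used here), were used as they stand. Array medians ran from 4.22 to 4.66. Arrays give no counts, so the number of tumors limits the precision, and p values measure the spread between tumors, some of which may share a mouse. Of 17306 rows, 16464 were named by the platform table, and *Pcsk2* was named by its Entrez ID in the RefSeq table. Chromosomes and promoter windows came from RefSeq (GRCm38.p6).

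Genotypes came from the labels, and background, sex, age and array-CGH calls from the study's table by tumor number. limma 3.58.1 in R 4.3.3 (lmFit, eBayes, two-sided) fitted the 3 genotypes in 31 tumors. In the 18 tumors of known background it fitted mutation plus background and the means of the 4 combinations. The fits were tested on simulated data. A lower group with a mean below log2 4 had its values below 4 set to 4 ("at least"). Members are all named. Other genes are up to 5 per list by the size of F1178L against *MYCN*, and the 3 genes most like each member with a group mean of at least log2 6. The members and lists were chosen with earlier results of these data known. Alternatives were no filter, a filter at log2 6, other normalizations, Student's test, array weights, trended moderation, subsets and covariates, and each tumor left out in turn. Summed marker levels are log2 of the summed linear values. Python 3.11.15 with matplotlib 3.10.9 made the figures.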

Additional observations from a re-analysis of the deposited data

Results flagged for a closer look

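Single tumors far from the rest of their group were looked for in groups of 4 to 10 tumors, 50 combinations of member and group. In 4 of them the most extreme tumor was set apart by more than Dixon's limit, where chance alone sets apart about 1 in 20. The 11 F1178L tumors as a whole were not examined, only those of each background, and some groups share tumors. *Scg5* stood at 12.59 in R1279Q tumor 9, with the next R1279Q tumor at 11.01. *Pcsk2* stood at 3.83 in *MYCN* tumor 22, with the next at 4.72. Among the 5 R1279Q tumors of 129S2, *Chgb* stood lowest at 12.09 in tumor 16, with the next at 12.92, and *Pcsk1* highest at 2.28 in tumor 19, with the next at 2.15, values far below log2 4.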

How the results depend on the processing

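Over 1563 values of single members under other settings, 1483 kept their direction and side of the threshold, 25 came to pass it, 3 no longer passed and 52 changed sign, none of them past the threshold before or after. The 3 were *Chga* and *Pam* in F1178L against *MYCN* and *Scg3* in R1279Q against *MYCN* tumors (0.51, adjusted p = 0.163), each with the 129B6F1 tumors alone. In F1178L against R1279Q tumors, 0 members were called, 5 with array weights (*Chga*, *Scg2*, *Scg3*, *Vgf* and *Pam*, where 32.6% of all genes were called), 1 within 129S2 (*Scg2*), 1 without tumor 38 (*Chga*), a setting chosen after seeing the data, and 0 to 2 with each tumor left out in turn. The interaction ran from 0 to 1 members on leaving out each tumor. F1178L against *MYCN* ran from 4 (129B6F1 alone) to 8 (array weights, with *Chgb* lower) over all settings and from 6 to 7 on leaving out each tumor. R1279Q against *MYCN* ran from 4 to 5 over all settings, 5 with array weights through *Pam*. Under array weights *Chgb* had -1.01 in F1178L against *MYCN* tumors (adjusted p = 0.0349).

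Signs changed as follows, and the cause was not tested. In R1279Q against *MYCN* tumors, *Chga* was -0.23 with array weights and -0.17 with the 129S2 tumors alone, and *Chgb* 0.92 with the 129B6F1 tumors alone. *Pcsk2* in F1178L against *MYCN* tumors was 0.074 with the 129S2 tumors alone. In F1178L against R1279Q tumors with background as a covariate, *Scg5* was -0.33 and *Cpe* -0.088, and with sex added -0.32 and -0.11. Within 129B6F1, *Scg2* was -0.74, *Scg5* -1.14, *Vgf* -0.46 and *Cpe* -0.20. In 129B6F1 against 129S2 tumors, *Cpe* was -0.0026 after quantile normalization, array weights gave -0.10 for *Scg2*, -0.068 for *Vgf* and -0.016 for *Cpe*, and age as a covariate gave 0.30 for *Scg3* and -0.18 for *Scg5*. Within F1178L tumors the background difference was -0.74 for *Chgb*, -1.13 for *Scg2*, -0.38 for *Scg5*, -0.47 for *Vgf* and -0.042 for *Cpe*, and within R1279Q tumors 0.25 for *Pcsk2* and 0.14 for *Pam*. Leaving out each tumor gave -0.12 to 0.14 for *Chga* and -0.37 to 0.052 for *Chgb* in R1279Q against *MYCN*, -0.093 to 0.25 for *Scg5* and -0.032 to 0.098 for *Cpe* in F1178L against R1279Q, and -0.28 to 0.055 for *Scg3* in the interaction. In 129B6F1 against 129S2 it gave -0.044 to 0.83 for *Chgb*, -0.27 to 0.72 for *Scg2*, -0.017 to 0.42 for *Scg5*, -0.23 to 0.57 for *Vgf* and -0.035 to 0.11 for *Cpe*.

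No paired analysis was possible because the tumor numbers are unique, so that the groups share no replicate numbers. Low values, as at *Pcsk1* (below log2 4 in all 31 tumors) and *Pcsk2*, have no call of what is above background.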

Other observations

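Array-CGH calls of the study's table fall on chromosomes of members in 4 tumors, all of 129B6F1, and whether a partial gain covers a gene is not given in the sources used here. R1279Q tumor 9, with a partial gain of chromosome 2, had the highest value of all 31 tumors at the 3 members on that chromosome, *Chgb* (15.02), *Scg5* (12.59) and *Pcsk2* (6.63). It was also highest at *Scg2* (12.39), which is on chromosome 1. F1178L tumor 2, with a loss of chromosome 2, was the highest of the 6 F1178L tumors of 129B6F1 at *Chgb* (14.31) and *Pcsk2* (5.01). With a loss of chromosome 5, F1178L tumor 38 and R1279Q tumor 8 were the lowest of their mutation in 129B6F1 at *Vgf* (6.80 and 7.30), a member on that chromosome. They were also the lowest at members on other chromosomes: tumor 38 among all F1178L tumors at *Chga*, *Chgb*, *Scg2*, *Scg3*, *Scg5*, *Pcsk2* and *Pam*, and tumor 8 among the 3 R1279Q tumors of 129B6F1 at *Chgb*, *Scg2*, *Scg3*, *Pcsk2*, *Cpe* and *Pam*. With a gain of chromosome 12, which holds *Chga*, F1178L tumor 2 had 10.85, the second highest of all 31 tumors, and R1279Q tumor 8 had 9.85. No test was made of these calls.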
